A study of Mus musculus with 12 samples.

Results

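Mouse embryonic fibroblasts (MEFs), connective tissue cells grown out of embryos, were compared in 4 genotypes for 9 of the 18193 genes measured: 5 cadherins (Cdh1, Cdh2, Cdh3, Cdh11 and Cdh13) and 4 transcription factors of the epithelial-mesenchymal transition (EMT), Snai1, Snai2, Zeb1 and Zeb2. The members were chosen by gene name, with earlier results of these data known. Cdh11 was picked on its loss in TKO-Ras MEFs, and its level there is therefore described without a test. RNA from each of 12 samples was hybridised to an Affymetrix MOE430 2.0 array, with 3 arrays per genotype. WT MEFs were wild type, Rb1KO MEFs were labelled with a deletion of Rb1, and TKO MEFs with deletions of Rb1, p107 (Rbl1) and p130 (Rbl2), which together make up the retinoblastoma (Rb) family. TKO-Ras MEFs carried the same deletions as TKO MEFs and, by their label, RasG12D. No group was treated, and all cells were in exponential growth when collected. The study describes the WT and TKO arrays, and its TKO MEFs came from another laboratory. How Ras was introduced, and whether any group is a single clone, is not given in the sources used here. The arrays of a group are labelled as biological replicates with no word on separate embryos or cultures, so that each p-value covers only the spread between these RNA samples. A gene was read from its probe set, a group of probes for a transcript, with the highest mean over the 12 arrays. Levels are log2 values, so that a difference of 1 is a doubling, and they compare arrays for 1 gene, not genes with each other. Background was set at 5.14, a level that 95% of the values of 43 olfactory receptor probe sets do not exceed. Where no array of a group exceeded it, only a lower bound of a fold is given.

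The arrays were alike in scale, with medians from 5.34 to 5.41 and 52.7% to 54.1% of probe sets above background. WT replicate 3 stood apart from its group, correlating with its other arrays at a mean r of 0.974, against 0.982 to 0.994 for the remaining arrays of the series. Of the genes named in the labels, Rbl1 was at background on every TKO and TKO-Ras array. Rb1 had means of 7.58, 7.14 and 7.56 in Rb1KO, TKO and TKO-Ras MEFs, against 8.50 in WT MEFs, and was above background on every array labelled with its deletion. Rbl2 was above background on all 3 TKO arrays (5.27 to 5.71) and on 2 TKO-Ras arrays, while it was at background on the arrays labelled Rb1KO (3.80 to 4.47, against 7.54 to 7.90 in WT MEFs), although that label names only Rb1. The deleted parts are not given, and a probe set outside them checks nothing. Of 10 fibroblast markers 9 were above background on every WT array, the exception being Fap, above it on 1 WT array and at background in the other groups. Thy1 was at background in both TKO and TKO-Ras MEFs. In these bulk samples, fewer cells of a type and less RNA per cell cannot be told apart.

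Cadherins are calcium-dependent adhesion proteins that bind the same cadherin on a neighbouring cell and, through catenins, the actin cytoskeleton. Epithelial cells carry mostly E-cadherin, and fibroblasts and other mesenchymal cells carry N-cadherin and cadherin-11. In the EMT, zinc finger proteins of the Snail (Snai1, Snai2) and Zeb (Zeb1, Zeb2) families repress Cdh1 and other epithelial genes by binding E-boxes, short DNA motifs with the core CACCTG. Snai1 is known to bind such a motif in its own promoter. A stretch upstream of Snai1 that holds the letters CACCTG is shown because they are the site type that 4 of the 9 members recognise. Whether it is the bound site was not tested. The stretch lies on the plus strand of GRCm38.p6 (RefSeq) at chr2:167538047-167538096, with the motif in capitals, 126 to 121 bases before the annotated start.
Snai1: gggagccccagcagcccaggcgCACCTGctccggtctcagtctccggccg
The motif was searched on both strands (reverse CAGGTG) in windows of 300 bases around annotated starts, and 20.2% of all 32851 such windows held it. None of the 4 windows of Zeb2 did, and the windows used included none of the remaining members. A match is a description of the letters and not a measured site.

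Cdh11 was at background in TKO-Ras MEFs, Cdh2 was lower in both knockouts than in WT MEFs, Cdh3 was higher in TKO MEFs than in each other group, and Snai2 and Zeb1 were lower in Rb1KO than in WT MEFs and in TKO-Ras than in TKO MEFs. In Rb1KO against WT, 3 of the 9 genes fell (Cdh2, Snai2 and Zeb1), 1 was higher (Cdh1, at background in both groups) and 5 did not pass the test (limma, adjusted p under 0.05 over all 45037 probe sets), where 12.3% of all genes fell and 15.6% rose. In TKO against WT, 2 fell (Cdh2 and Cdh11), 2 were higher (Cdh3, and Cdh1 at background) and 5 did not pass, where 9.90% of all genes fell and 13.6% rose. In TKO against Rb1KO, 3 rose (Cdh3, Snai2 and Zeb1) and 6 did not pass, where 5.92% of all genes rose and 3.63% fell. In TKO-Ras against TKO, of the 8 genes other than Cdh11, 4 were lower (Cdh3, Snai2, Zeb1, and Cdh1 at background) and 4 did not pass, where 4.17% of all genes fell and 3.19% rose. The median log2 fold change of the members was -0.13, -8.7e-04, 0.13 and -0.61 in these comparisons, in the order given, and that of all genes was 0.08, 0.05, -0.03 and 0.04. The comparisons are not independent, since both knockouts were set against the same WT arrays, and the TKO arrays enter 3 of the 4 comparisons.

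**Figure D1:**
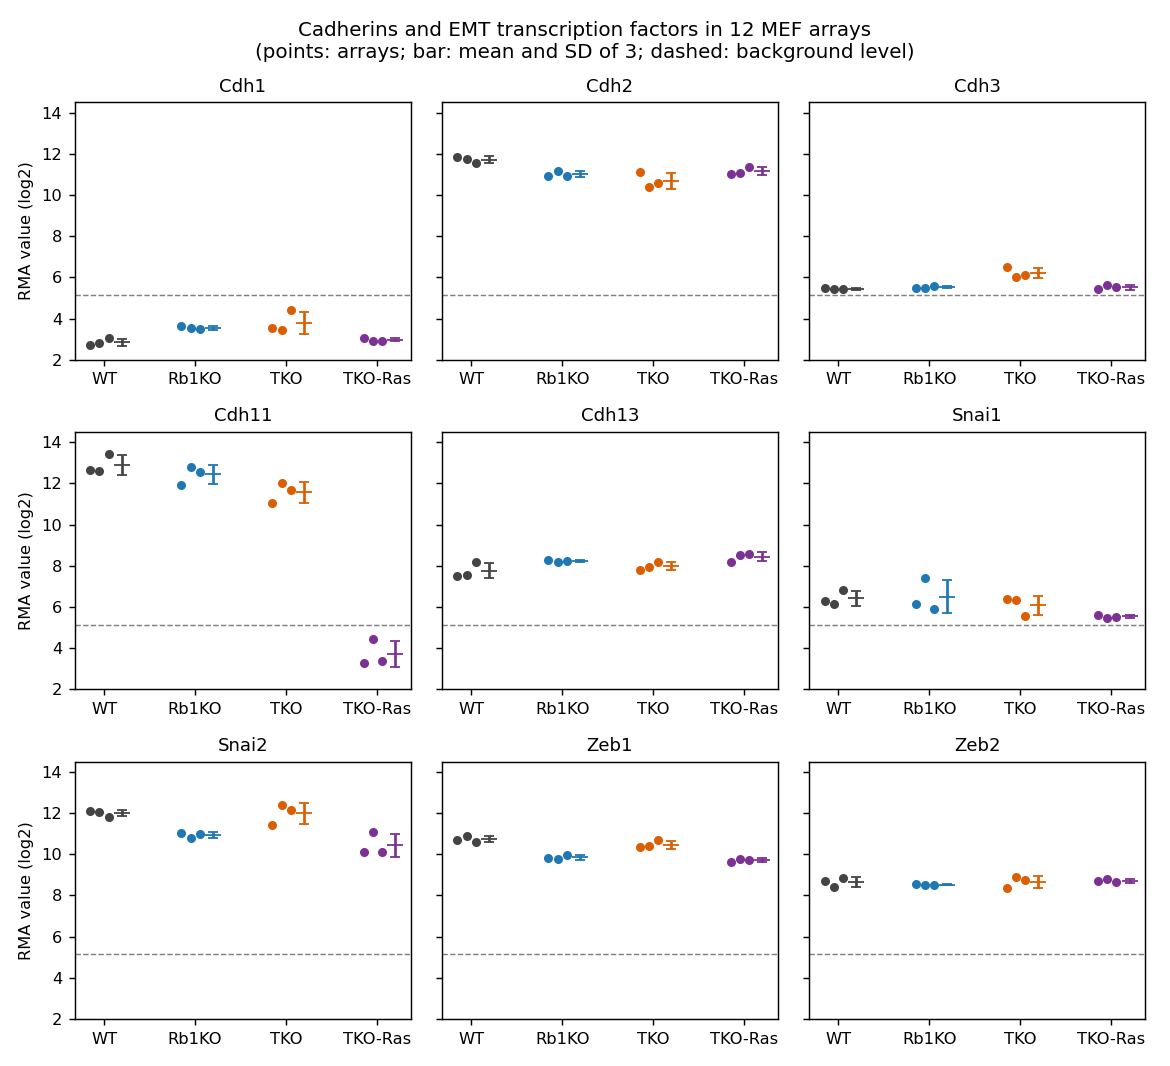
Log2 level of each of the 9 genes on every array, in a panel per gene, where each array is 1 point, bars give mean ± SD over the 3 arrays of a group, and background (5.14) is dashed. Cdh11 sits between 11.03 and 13.45 on the WT, Rb1KO and TKO arrays and between 3.30 and 4.43 on the TKO-Ras arrays, and Cdh1 is below the line on all 12 arrays.

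Cdh11 encodes cadherin-11 (OB-cadherin), a cadherin of mesenchymal cells and osteoblasts. On probe set 1450757_at its levels were 12.64, 12.59 and 13.45 on the WT arrays and 11.92, 12.82 and 12.56 on the Rb1KO arrays. They were 11.03, 12.04 and 11.67 on the TKO arrays. The WT and Rb1KO arrays overlap, as do the Rb1KO and TKO arrays, while every TKO array lies below every WT array. On the TKO-Ras arrays Cdh11 was 3.30, 4.43 and 3.39, below background on all 3. Relative to TKO MEFs, where the mean was 11.58 ± 0.51 (SD, n = 3), Cdh11 was thus at least 86.9-fold lower in TKO-Ras MEFs. Its fitted log2 fold change there was the lowest of the 18193 genes, of which only 3 stood at -5 or lower, on the comparison it was picked on. Between the groups without mutated Ras the differences were far smaller. Cdh11 decreased from 12.89 ± 0.48 in WT to 11.58 in TKO MEFs, a log2 fold change of -1.31 (standard error 0.370, 95% confidence interval -2.12 to -0.50, adjusted p = 0.028 from limma). The Rb1KO mean of 12.43 ± 0.46 did not pass against WT (-0.46, interval -1.27 to 0.36, adjusted p = 0.43), and TKO did not pass against Rb1KO (-0.86, adjusted p = 0.22). The call in TKO against WT was lost without WT replicate 3 (-1.03, adjusted p = 0.074), without TKO replicate 1 (-1.04, adjusted p = 0.12) or without TKO replicate 3 (-1.36, adjusted p = 0.054), and with the contrasts that the methods name, which do not moderate the variance (adjusted p = 0.078).

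The other probe set of Cdh11, 1435120_at, went the same way. Its levels were 9.07, 8.87 and 9.62 on the WT arrays, 8.29, 9.14 and 8.95 on the Rb1KO arrays and 7.15, 8.30 and 7.98 on the TKO arrays. On the TKO-Ras arrays it read 2.96, 3.45 and 2.97, all below background. Both probe sets of the gene were thus at background in TKO-Ras MEFs, which is at least 6.37-fold lower than TKO on this dimmer one. In TKO against WT this probe set also fell, by 1.38 on the log2 scale (adjusted p = 0.0095).

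Cdh2 encodes N-cadherin, the classical cadherin of fibroblasts and neurons. On probe set 1418815_at it was 11.85, 11.76 and 11.56 on the WT arrays and 10.92, 11.16 and 10.93 on the Rb1KO arrays. On the TKO arrays it was 11.10, 10.37 and 10.59, and on the TKO-Ras arrays 11.03, 11.05 and 11.38. The WT arrays are the highest and overlap with no other group, and the other 3 groups overlap with their neighbours in the order TKO-Ras, Rb1KO, TKO. Compared to WT MEFs (11.72 ± 0.15, SD, n = 3), Cdh2 fell by 0.72 in Rb1KO MEFs (interval -1.11 to -0.33, adjusted p = 0.012) and by 1.04 in TKO MEFs (interval -1.43 to -0.65, adjusted p = 0.0016), a 2.06-fold decrease. Both calls held in all 16 alternatives tried. TKO did not pass against Rb1KO MEFs (-0.32, adjusted p = 0.35). In TKO-Ras against TKO the log2 fold change was 0.47 (adjusted p = 0.17), and without TKO replicate 1, the highest of its group, it was 0.68 (adjusted p = 0.031). On the other probe set of Cdh2 the WT comparisons also passed, at -0.66 (adjusted p = 0.026) and -0.82 (adjusted p = 0.0097). Of 7 neural and neural crest markers, 1 fell in Rb1KO against WT, and 2 fell and 1 rose in TKO against WT. Their summed level (log2 of the summed linear values) was 11.58 to 11.85 on the WT arrays, where Map2 read highest. It was 10.89 to 11.23 in Rb1KO, 10.40 to 10.87 in TKO and 10.81 to 11.26 in TKO-Ras MEFs. Such a sum weighs each gene by the brightness of its probe set, and it compares arrays only. Of the 10 fibroblast markers, 7 fell in Rb1KO against WT and 6 in TKO against WT, and none rose. The part of either list in the falls of Cdh2, and of Snai2 and Zeb1 described below, was not tested.

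Cdh3 encodes P-cadherin, found mainly in basal epithelial cells and placenta. Its levels on 1426673_at were low, at 5.47, 5.42 and 5.42 on the WT arrays and 5.49, 5.51 and 5.59 on the Rb1KO arrays. On the TKO arrays it read 6.48, 6.02 and 6.13, and on the TKO-Ras arrays 5.41, 5.61 and 5.51. All 3 TKO arrays lie above all 9 others. Cdh3 rose by 0.77 in TKO against WT (standard error 0.118, interval 0.52 to 1.03, adjusted p = 8.2e-04) and by 0.68 in TKO against Rb1KO (adjusted p = 0.0044), and it fell by 0.70 in TKO-Ras against TKO (adjusted p = 0.0054). Rb1KO did not pass against WT (0.09, adjusted p = 0.63). In the WT, Rb1KO and TKO-Ras groups Cdh3 was below 5.82, a stricter background (99th percentile of the olfactory receptors), so that these folds start close to background. Some markers of other cells were also higher in TKO MEFs. Of 8 endothelial markers 2 were higher against WT (Erg, and Tie1 at background in both groups) and 1 against Rb1KO (Erg), and of 8 leukocyte markers 2 rose in each. The endothelial factor Erg was 7.57 to 8.71 in TKO, 4.42 to 4.82 in TKO-Ras and at most 4.77 in Rb1KO MEFs, and in WT MEFs it was above background only on replicate 3 (7.46), while 5 endothelial and 4 leukocyte markers were at background on all arrays. Their part in the rise of Cdh3 was not tested. Its other probe set was at background in every group, and with the mean of both the rise against Rb1KO was 0.27 (adjusted p = 0.086).

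Cdh1 encodes E-cadherin, the cadherin of epithelial cells and the classical target of Snail and Zeb proteins. It was at background on all 12 arrays, from 2.71 to 4.42, and no fold is given. Differences below background passed the test in 3 comparisons (adjusted p = 0.038 in Rb1KO against WT, 0.0091 in TKO against WT and 0.045 in TKO-Ras against TKO) with group means from 2.86 in WT to 3.80 in TKO MEFs. The highest array, TKO replicate 3 at 4.42, was still below the background level. The call in Rb1KO against WT was lost without WT replicate 1, WT replicate 2 or any 1 Rb1KO array (adjusted p from 0.075 to 0.12), and that in TKO-Ras against TKO without any 1 TKO-Ras array (adjusted p from 0.095 to 0.13). Cdh13 encodes T-cadherin, an atypical cadherin that is anchored to the membrane by a lipid and has no cytoplasmic tail. It lay between 7.53 and 8.58 on all arrays, with means of 7.76 in WT, 8.24 in Rb1KO, 7.98 in TKO and 8.43 in TKO-Ras MEFs. None of the 4 comparisons passed. The value in Rb1KO against WT was 0.48 (adjusted p = 0.085), and it passed without WT replicate 3 (0.69, adjusted p = 0.0049), with array weights (0.66, adjusted p = 0.0023) and with the mean of the 4 probe sets of Cdh13 (0.41, adjusted p = 0.039).

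Snai2 encodes Slug, the Snail family repressor that is typical of mesenchymal and neural crest cells. On probe set 1447643_x_at it was 12.09, 12.05 and 11.82 on the WT arrays and 11.02, 10.77 and 10.99 on the Rb1KO arrays. On the TKO arrays it was 11.43, 12.37 and 12.15, and on the TKO-Ras arrays 10.09, 11.09 and 10.12. The WT and TKO arrays overlap and the Rb1KO arrays lie below both, and TKO-Ras replicate 2 lies above the Rb1KO arrays while the other TKO-Ras arrays lie below them. Snai2 fell by 1.06 in Rb1KO against WT (interval -1.67 to -0.45, adjusted p = 0.017) and rose by 1.06 in TKO against Rb1KO (adjusted p = 0.042), while TKO and WT MEFs had the same mean of 11.98 (log2 fold change -8.7e-04, interval -0.61 to 0.61). In TKO-Ras against TKO it fell by 1.55 (interval -2.16 to -0.94, adjusted p = 0.0075), a call kept in all 16 alternatives with a highest adjusted p of 0.039. The other probe set of Snai2 gave -1.06, -0.05, 1.01 and -1.52 in the same order of comparisons as the medians above. The fall in Rb1KO MEFs was lost without WT replicate 1 (-1.01, adjusted p = 0.055) or without Rb1KO replicate 2 (-0.98, adjusted p = 0.063). The rise in TKO against Rb1KO passed only narrowly and was lost without any 1 Rb1KO array, TKO replicate 2 or TKO replicate 3 (0.87 to 1.11, adjusted p from 0.092 to 0.16), and both calls were lost with the methods' contrasts (adjusted p = 0.051 and 0.11).

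Zeb1 encodes a zinc finger and homeodomain repressor that recruits the corepressor CtBP to E-boxes. On probe set 1418926_at it was 10.70, 10.89 and 10.59 on the WT arrays and 9.84, 9.74 and 9.97 on the Rb1KO arrays. On the TKO arrays it was 10.33, 10.39 and 10.69, and on the TKO-Ras arrays 9.60, 9.79 and 9.73. The WT and TKO arrays overlap, and both lie wholly above the Rb1KO and TKO-Ras arrays, which overlap with each other. Zeb1 fell by 0.87 in Rb1KO against WT (standard error 0.123, interval -1.14 to -0.60, adjusted p = 3.9e-04), rose by 0.62 in TKO against Rb1KO (adjusted p = 0.010) and fell by 0.76 in TKO-Ras against TKO (interval -1.03 to -0.49, adjusted p = 0.0042). In TKO against WT the value was -0.26 (adjusted p = 0.18). The other 3 probe sets of Zeb1 passed in no comparison. With the mean of all 4, the rise against Rb1KO (0.41, adjusted p = 0.17) and the fall in TKO-Ras (-0.38, adjusted p = 0.23) no longer passed, while the fall in Rb1KO against WT still did.

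Zeb2, the relative of Zeb1, and Snai1, the founding Snail repressor, passed in no comparison. Zeb2 lay between 8.34 and 8.88 on the 12 arrays, and its group means spanned 0.19. None of its 5 probe sets passed. Snai1 lay between 5.49 and 7.43, with means of 6.42 in WT, 6.08 in TKO and 5.55 in TKO-Ras MEFs. The array at 7.43 was Rb1KO replicate 2, and the other Rb1KO arrays read 6.15 and 5.92. Its lowest adjusted p over the 4 comparisons was 0.47, that of TKO-Ras against TKO (-0.53). Within the Snail and Zeb pairs, 1 gene of each thus passed in 3 comparisons and the other in none, although the difference between the pair members was not tested.

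**Figure D2:**
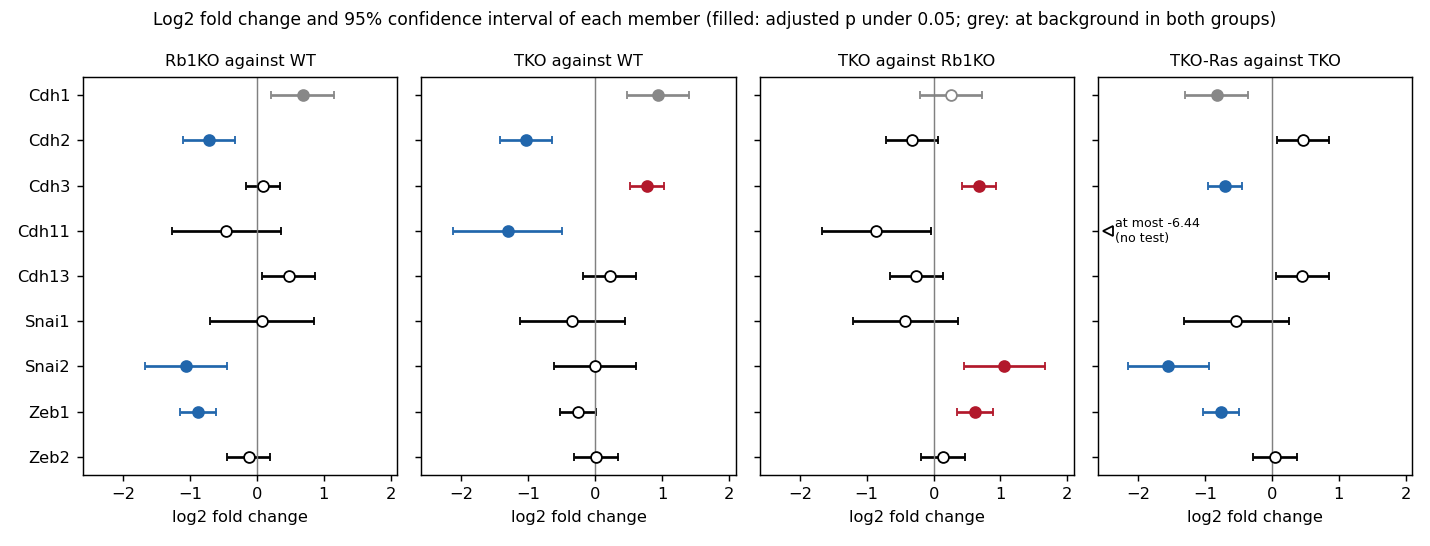
Log2 fold change of each gene in the 4 comparisons with its 95% confidence interval, filled where the adjusted p was under 0.05 and open otherwise, in grey for Cdh1 at background, and with an arrow for Cdh11 in TKO-Ras against TKO (lower by at least 6.44, no test). Cdh2 lies at -0.72 and -1.04 in both comparisons with WT, and Snai2 and Zeb1 lie at -1.06 and -0.87 in Rb1KO against WT and at -1.55 and -0.76 in TKO-Ras against TKO.

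The 9 genes are covered by 23 probe sets in all. Cdh2, Cdh11 and Snai2 have a pair of probe sets each, and in the comparisons of knockouts with WT both members of each pair had the same sign. The calls of Cdh3 and Zeb1 rest on 1 of several probe sets, and Cdh1 has only 1. For Zeb1 the probe set 1443005_at gave -0.29, 0.11, 0.40 and -0.45 in the order of comparisons used above. A further one, 1446127_at, gave -1.39 in Rb1KO against WT (adjusted p = 0.055), and 1420243_at was at background. The probe sets may read different parts or forms of a transcript, which the files do not show.

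**Figure D3:**
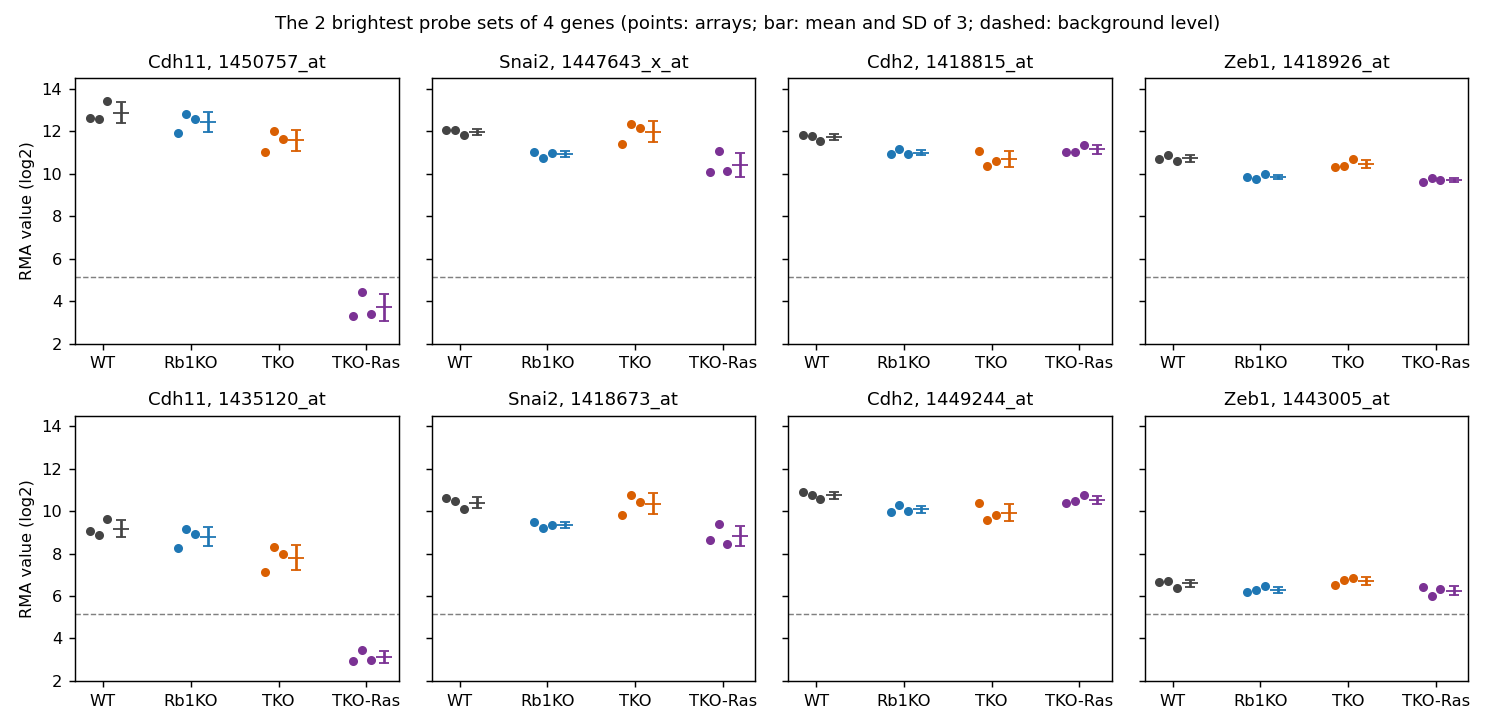
Values on the log2 scale for the 2 brightest probe sets each of Cdh2, Cdh11, Snai2 and Zeb1 in the 4 genotypes. Both Snai2 probe sets had log2 fold changes of -1.06 in Rb1KO against WT and near -1.5 in TKO-Ras against TKO. Of the 4 Zeb1 probe sets measured, not all of them shown, only 1 passed in any comparison (adjusted p under 0.05 from limma).

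Cdh1, Cdh3, Cdh11 and Cdh13 are on mouse chromosome 8 of GRCm38.p6, Snai1 and Zeb2 on chromosome 2, Snai2 on chromosome 16, and Cdh2 and Zeb1 on chromosome 18. No change was called in TKO-Ras against TKO for the measured genes beside Cdh11. Of the 3 nearest on each side in RefSeq gene order (Got2, Cdh8 and A330008L17Rik, then Cdh5, Bean1 and Tk2), none passed, with log2 fold changes from -0.32 for Tk2 (adjusted p = 0.19) to 0.10 for Got2 (adjusted p = 0.67). Got2, a mitochondrial aminotransferase, ranged from 11.47 to 11.76 in TKO and from 11.65 to 11.77 in TKO-Ras MEFs. Tk2, the mitochondrial thymidine kinase, ranged from 7.09 to 7.50 and from 6.94 to 7.19. Cdh5, Cdh8 and Bean1 were at background in both groups and have no fall to show. A330008L17Rik read 4.88 to 5.17 on the TKO arrays, at or close to background, and was below it on the TKO-Ras arrays. Of these neighbours only Got2 and Tk2 were thus well above background.

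Among 1085 genes whose group means spanned 2 or more on the log2 scale, those most like Cdh11 over the 12 arrays were Serpinf1 (Pearson r = 0.984), Emx2 (0.982), Dennd2a (0.980) and Vgll3 (0.978). These correlations are a description of arrays that share 4 genotypes, and they are set mostly by the gap between the TKO-Ras arrays and the rest. Serpinf1, which encodes the secreted protein PEDF, had means of 12.88, 12.44, 12.13 and 8.75 in WT, Rb1KO, TKO and TKO-Ras MEFs. Emx2, a homeobox gene, had means of 8.42, 7.91 and 7.63 in the first 3 groups and was at background in TKO-Ras MEFs. Dennd2a had means of 8.24, 8.07 and 8.05 in the first 3 groups and lay between 5.77 and 6.27 on the TKO-Ras arrays, and Vgll3 had means of 11.76, 11.26, 10.91 and 9.14.

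**Figure D4:**
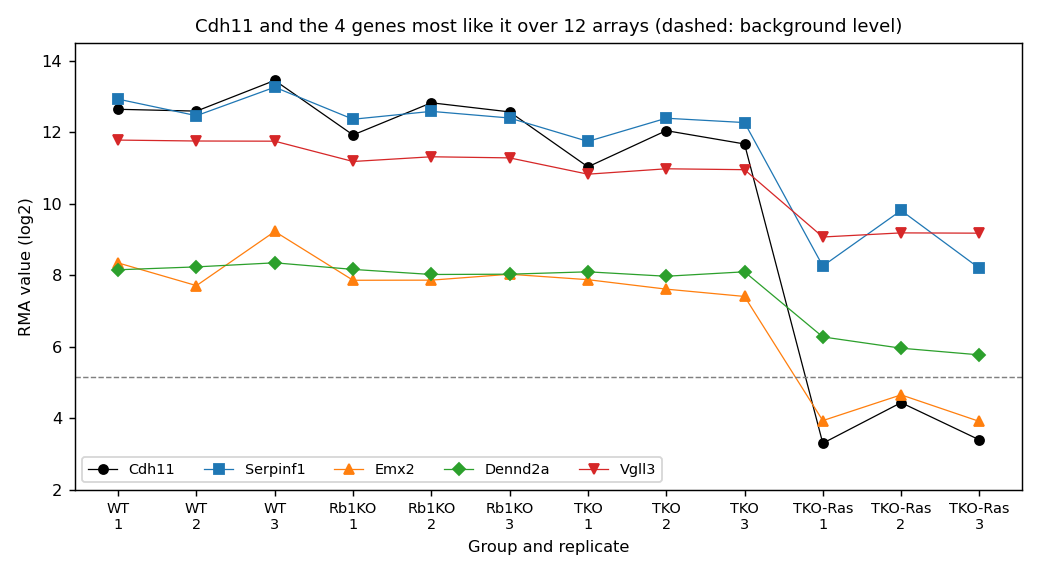
Log2 levels of Cdh11 and of the 4 genes most like it on the 12 arrays, grouped by genotype, with background (5.14) dashed. All 5 genes drop on the TKO-Ras arrays, Cdh11 and Emx2 to below background and Vgll3 to between 9.07 and 9.18.

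Markers of other cells were read beside the values in TKO-Ras MEFs. Of 27 epithelial genes, 13 were at background on all 12 arrays. Their summed level was 10.28 to 10.59 on the TKO arrays and 11.08 to 11.58 on the TKO-Ras arrays, 10.09 to 10.58 in WT and 10.34 to 10.48 in Rb1KO MEFs. The highest reading of them was Krt19, a keratin of simple epithelia, at 10.20 to 10.93 on the TKO-Ras arrays and 7.97 to 9.07 on the TKO arrays. This difference of 2.07 did not pass the test (adjusted p = 0.16). Krt19 ran from 5.11 to 9.09 on the WT arrays and from 7.63 to 8.37 on the Rb1KO arrays. A sum of linear values follows its highest genes most. None of the 27 genes passed in TKO-Ras against TKO, and their median log2 fold change there was 0.11. Cdh1, a marker of epithelial cells that is not in this list, was at background throughout. Of the 27 epithelial genes, 12 were above background on every TKO array and 12 on every TKO-Ras array. Of the 10 fibroblast markers 4 fell and none rose. Their summed level was 16.30 to 16.40 in TKO and 15.77 to 15.88 in TKO-Ras MEFs, 15.92 to 16.04 in Rb1KO and 16.79 to 16.96 in WT MEFs. Of 8 muscle markers 1 rose in TKO-Ras against TKO, where the summed level was 8.46 to 8.69 in TKO and 9.16 to 9.87 in TKO-Ras MEFs, beside 8.36 to 10.25 in WT and 8.85 to 9.73 in Rb1KO MEFs. Of 8 endothelial markers 1 fell, and none of 8 leukocyte or 7 neural markers passed. The summed level of the leukocyte markers, of which Cd14 read highest, was at most 8.87 in TKO and at most 9.27 in TKO-Ras MEFs. The part of these shifts in the values of the 9 genes was not tested.

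Other genes of cadherin adhesion and of the EMT were read from lists of known members. Over all genes, 15.6% rose and 12.3% fell in Rb1KO against WT, and 13.6% and 9.90% in TKO against WT. The shares were 5.92% and 3.63% in TKO against Rb1KO, and 3.19% and 4.17% in TKO-Ras against TKO. Of 14 other cadherins measured, 1 fell and none rose in Rb1KO against WT, 1 fell and 1 rose in TKO against WT, and none passed in the 2 other comparisons, with 8 to 10 of them at background in both groups. The one that rose, Cdh22, was at background on every WT array and above it on 1 TKO array (adjusted p = 0.033). Its call was kept in 3 of 6 fits with 1 array left out. The one that fell was Cdh10, a cadherin of the nervous system, which was 8.56 and 8.49 on WT replicates 1 and 2, 4.53 on WT replicate 3 and at background in every other group (adjusted p = 0.0092 for Rb1KO and 0.015 for TKO). Ctnnd2, the neural delta-catenin that binds cadherin tails, followed the same arrays, at 8.25, 8.34 and 4.38 in WT MEFs and at background elsewhere (adjusted p = 0.021 and 0.0089). Both genes were thus detected on 2 of the 12 arrays. The fall of Cdh10 in TKO MEFs was lost without WT replicate 1, WT replicate 2 or TKO replicate 2 (adjusted p from 0.057 to 0.064), and that of Ctnnd2 in Rb1KO MEFs without WT replicate 1, WT replicate 2, Rb1KO replicate 2 or Rb1KO replicate 3 (adjusted p from 0.057 to 0.084).

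Of 16 partners of cadherins at adherens junctions, 3 fell and 1 rose in Rb1KO against WT, 3 fell in TKO against WT, 2 fell in TKO against Rb1KO and 1 rose in TKO-Ras against TKO. Their median log2 fold changes were -0.02, -0.25, -0.18 and 0.08. Nectin3, an adhesion protein that seeds adherens junctions, fell from 10.67 ± 0.26 in WT to 9.92 ± 0.18 in Rb1KO (adjusted p = 0.0046) and 9.64 ± 0.18 in TKO MEFs (SD, n = 3, adjusted p = 7.9e-04). Afdn, the afadin that ties nectins to actin, rose by 0.75 in Rb1KO against WT (adjusted p = 0.0045) and by 0.76 in TKO-Ras against TKO (adjusted p = 0.015). The second of these was lost without TKO replicate 1, TKO replicate 2, TKO-Ras replicate 1 or TKO-Ras replicate 3 (0.62 to 0.75, adjusted p from 0.051 to 0.066). Without WT replicate 3, 5 partners fell in Rb1KO and 7 in TKO MEFs against WT.

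Among 14 other EMT transcription factors, 3 rose and 2 fell in each of the comparisons among WT, Rb1KO and TKO MEFs, and 2 rose and 2 fell in TKO-Ras against TKO. Such counts are to be read beside the shares over all genes given with the other cadherins, and no list was tested as a set. Foxf1, a forkhead factor of mesenchyme, was 8.12, 8.60 and 8.54 on the WT arrays, 5.53, 5.71 and 4.86 on the Rb1KO arrays, 7.54, 7.71 and 7.84 on the TKO arrays and 6.05, 5.77 and 5.86 on the TKO-Ras arrays. It fell by 3.06 in Rb1KO against WT (adjusted p = 2.8e-06), rose by 2.33 in TKO against Rb1KO (adjusted p = 4.0e-05) and fell by 1.80 in TKO-Ras against TKO (adjusted p = 4.4e-04). Twist2, a bHLH factor of dermal fibroblasts, went the other way, with a rise of 2.06 in Rb1KO (adjusted p = 5.2e-06) and of 1.12 in TKO MEFs (adjusted p = 3.7e-04) against WT. Foxq1 rose by 1.81 in TKO against WT (adjusted p = 7.4e-04). Of 13 partners and regulators of Snail and Zeb proteins, 3 rose and 1 fell against WT in each knockout, and none passed in the other comparisons. Ezh2, the Polycomb methyltransferase that Snail can recruit, rose by 1.44 in Rb1KO (adjusted p = 1.6e-05) and by 1.27 in TKO MEFs (adjusted p = 4.5e-05).

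Epithelial genes mostly did not pass. Of 27, none passed in Rb1KO against WT or in TKO-Ras against TKO, 2 rose in TKO against WT (Krt8 by 0.34, and Spint1, at background in both groups) and 1 fell in TKO against Rb1KO (Dsp, at background in TKO MEFs). The call of Krt8, a keratin of simple epithelia, was lost without WT replicate 1, WT replicate 2, TKO replicate 1 or TKO replicate 2 (0.29 to 0.35, adjusted p from 0.077 to 0.14). Spint1, a protease inhibitor, was lost without WT replicate 1, TKO replicate 2 or TKO replicate 3 (adjusted p from 0.085 to 0.11), and Dsp, the desmosomal protein desmoplakin, without Rb1KO replicate 1, Rb1KO replicate 3 or any 1 TKO array (adjusted p from 0.052 to 0.11). Of 19 mesenchymal genes, 11 fell and none rose in Rb1KO against WT, 9 fell and none rose in TKO against WT, 3 rose and 1 fell in TKO against Rb1KO, and 9 fell and none rose in TKO-Ras against TKO. These genes include all 10 fibroblast markers, whose calls are thus counted again here. Of the falls, 7, 6 and 4 in the comparisons Rb1KO against WT, TKO against WT and TKO-Ras against TKO were of those markers. The median log2 fold changes of the mesenchymal list were -1.06, -0.89, 0.03 and -1.01, against 0.08, 0.05, -0.03 and 0.04 over all genes. Col5a1, a fibrillar collagen chain, fell by 2.76 in Rb1KO (adjusted p = 1.3e-07) and by 1.70 in TKO MEFs (adjusted p = 3.7e-06) against WT. In TKO-Ras against TKO, Col1a1, a chain of type I collagen, fell by 2.45 (adjusted p = 2.4e-05) and Tagln, an actin-binding protein of contractile cells, by 3.39 (adjusted p = 0.0065). Postn fell most there, by 4.37 (adjusted p = 0.017), a call kept in 3 of 6 fits with 1 array left out. Vim, the mesenchymal intermediate filament vimentin, is named after its values were seen. It passed in no comparison, with means of 14.33, 14.20, 14.13 and 14.43 in WT, Rb1KO, TKO and TKO-Ras MEFs.

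**Figure D5:**
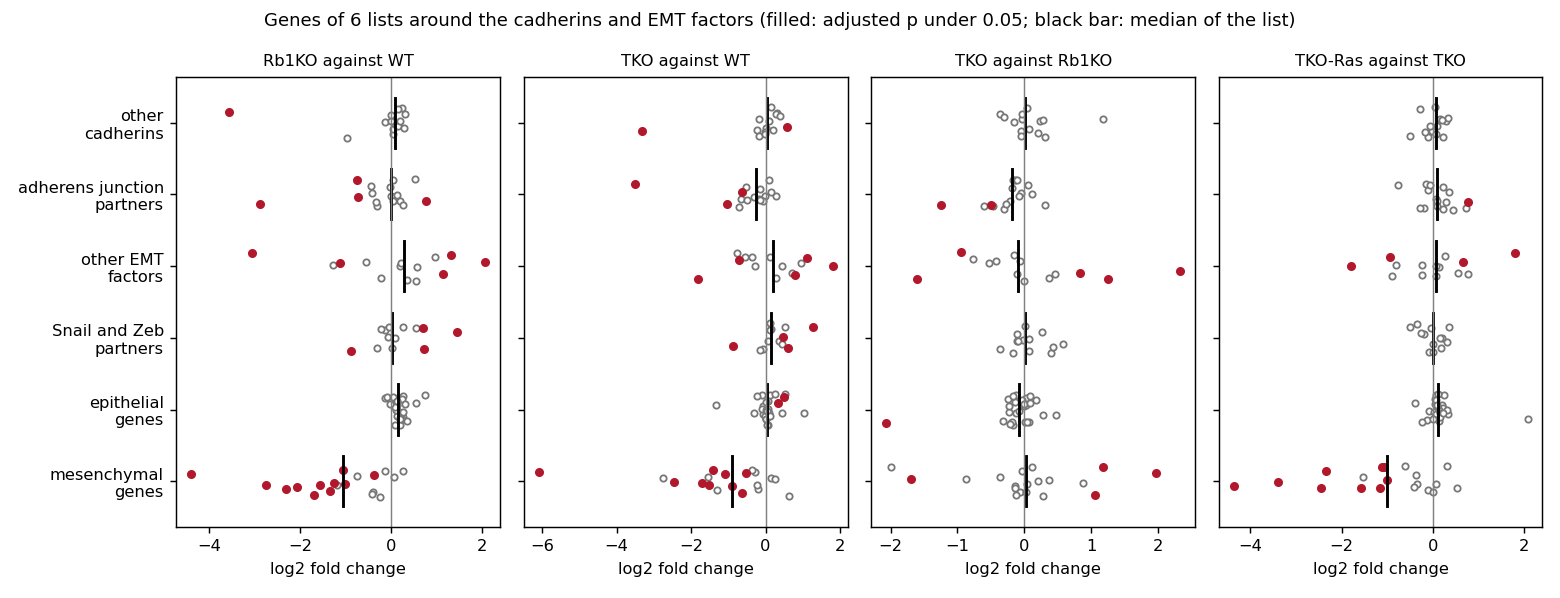
Log2 fold change of each measured gene of the 6 lists in the 4 comparisons. Points are filled where the adjusted p was under 0.05 and open otherwise, and bars mark list medians. The medians of the 19 mesenchymal genes lie at -1.06, -0.89, 0.03 and -1.01, and those of the 27 epithelial genes at 0.14, 0.03, -0.08 and 0.11.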

How the data were processed

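Per the labels, 100 ng of total RNA per sample was labelled and hybridised to Affymetrix MOE430 2.0 arrays. The authors normalized and summarized the scans by RMA in Partek Genomics Suite 6.5 and deposited a table of 45101 probe sets by 12 arrays. The deposited values were read as log2 from their range and near-equal medians. RMA brings all arrays to 1 distribution, so a shift shared by most genes would not be seen, and it compresses differences near background. The number of arrays limits the precision.

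The 64 control probe sets were left out. Of the 45037 others, 34945 carry 1 gene symbol, 932 several and 9160 none in the annotation used. The 18193 genes named by 1 symbol were each read from the probe set with the highest mean. Groups came from the labels. A single limma fit (version 3.58.1, R 4.3.3, lmFit with default eBayes) held all 12 arrays and had 8 residual degrees of freedom, and its 2-sided tests received Benjamini-Hochberg adjustment across the 45037 probe sets. A gene was called under 0.05, and every adjusted p in the text is from limma unless the contrasts of the methods (1-way ANOVA) are named. The fit was tested on simulated data. Gene order, chromosomes and promoter windows are from RefSeq (GRCm38.p6). No coordinates were taken for probes.

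The members, gene lists, marker lists and tests were chosen with earlier results of these data known. Lists are described by counts and medians with no set test. Named from each list were up to 3 called genes with the largest change in a comparison, of which not all are given. Genes were compared in likeness to Cdh11 by Pearson r. Replicate numbers were not used to pair the samples in the main fit. Same-numbered arrays deviated from their group means with r from -0.21 to 0.19. With 3 arrays per genotype, such values do not show whether samples were paired. Alternatives tried were a robust fit with an intensity trend, the methods' 1-way ANOVA contrasts, array weights, a replicate block, only the groups compared, median centring, cyclic loess, a filter on background, other probe set rules, other background percentiles and each replicate left out. Counts of list genes without WT replicate 3 were added after the values were seen.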

Additional observations from a re-analysis of the deposited data

How the results depend on the processing

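Of the values of single genes under the alternatives, 521 kept their direction and side of the threshold, 29 no longer passed, 5 passed newly, 1 without a test moved and 16 changed sign. No called value changed sign. Outside the omission of replicates, the sign changed for Snai2 in TKO against WT (0.053 with median centring), for Zeb2 in TKO against WT (-0.078 with cyclic loess) and, with the mean of all probe sets, for Zeb2 in Rb1KO against WT (0.16) and in TKO against Rb1KO (-0.061). With 1 replicate left out, TKO against WT ran from -0.20 to 0.28 for Snai2 and from -0.11 to 0.17 for Zeb2, Rb1KO against WT from -0.38 to 0.37 for Snai1, TKO against Rb1KO from -0.71 to 0.043 for Snai1 and from -0.054 to 0.44 for Cdh1 (fitted differences below background and no folds), and TKO-Ras against TKO from -0.11 to 0.16 for Zeb2. The cause was not tested. The number of the 9 genes that passed in Rb1KO against WT was 4, and 2 with the methods' contrasts. It ran from 2 (without WT replicate 1 or Rb1KO replicate 2) to 5 with 1 replicate left out. In TKO against Rb1KO 3 passed, and 1 with the mean of all probe sets. With the replicate block 5, 4, 3 and 4 genes passed, in the order of the report, against 4, 4, 3 and 4, and the added gene was Cdh13 in Rb1KO against WT (0.48, adjusted p = 0.037). The calls of Cdh1, at background, were lost most often, in Rb1KO against WT also with cyclic loess (adjusted p = 0.065) and in both TKO against WT and TKO-Ras against TKO with only the groups compared (adjusted p = 0.067 and 0.10). With background set at the olfactory receptors' 99th percentile, 2, 2, 1 and 4 of the genes were at background in WT, Rb1KO, TKO and TKO-Ras MEFs, at their median 1, 1, 0 and 1, and at the level used 1, 1, 1 and 2.

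Without WT replicate 3, 2 other cadherins and 5 junction partners fell, and 5 EMT factors, 2 epithelial genes and 1 mesenchymal gene rose in Rb1KO against WT (1, 3, 3, 0 and 0 with it). In TKO against WT, 7 junction partners and 1 epithelial gene fell, and 5 EMT factors and 2 mesenchymal genes rose (3, 0, 3 and 0 with it). Of 45 calls of list genes ranked for naming, 25 held with each array of their comparison left out in turn and 20 did not.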
